A study of Mus musculus with 6 samples.

Results

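The genes described here are 47 genes that mark or build bipolar and amacrine cells, the interneurons of the inner retina, and they were chosen by name: 21 bipolar and 26 amacrine cell genes. Of these, 38 were listed in the table of all 13072 genes, 18 of them bipolar and 20 amacrine. The other 9 names, Lrtm1, Isl1os, Grik1os, Ebf2, Lhx5, Th, Vip, Pax6os and Nfib2, are in none of the expression results here. RNA came from whole retinas of C57BL/6 mice at postnatal day 7, with 3 libraries labelled CTGF-/- and 3 labelled WT. CTGF-/- stands for a deficiency of connective tissue growth factor, a secreted matrix-associated protein, made with an inducible Cre/lox system. The sources used here do not name the driver of Cre, the inducing agent, the deleted part of the gene or the number of animals behind each library. Nothing says that the libraries of a group came from separate animals, so the p-values reflect only the spread among libraries, possibly technical.

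Bipolar cells carry the signal of rods and cones to the inner retina. ON bipolar cells sense glutamate through the receptor mGluR6 (Grm6), which acts through the G protein Go (Gnao1, Gnb3, Gng13) to close the cation channel Trpm1, and light reopens the channel when glutamate falls. Amacrine cells are mostly inhibitory interneurons that use GABA or glycine, and subtypes add acetylcholine or a neuropeptide. In mice, amacrine cells are born earlier than bipolar cells, and many bipolar cells are born after birth, with the genes of mature bipolar cells coming on afterwards.

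Values are FPKM, fragments scaled by transcript length and library size, and are given for replicates 1, 2 and 3 of a group in that order. Depth is unknown because the tables hold no counts. The log2 differences are CTGF-/- minus WT on log2(FPKM + 1), which understates changes of low genes, and come from limma fitted to the 12915 genes with a mean of at least 0.5 FPKM. The gene FPKM summed to 217674 to 230474 in the CTGF-/- libraries and to 208436 to 216436 in the WT libraries. Ctgf itself was at 0.587, 1.0 and 0.526 FPKM in CTGF-/-, against 0.932, 0.777 and 1.51 FPKM in WT, so these overlapped, and reads from remaining exons would still count. Lens genes summed to 179.6 to 3159.8 FPKM over 8 genes in CTGF-/- and to 0.993 to 447 FPKM in WT, where Crybb2, Crygs and Crygd were listed at 0 in WT 2 and WT 3, and their part in any result was not tested. None of the 38 members was listed at 0 in any library. The median of the mean FPKM was 3.57 over the bipolar and 10.7 over the amacrine genes listed, and the defining ON bipolar genes Trpm1 and Grm6 spanned 0.148 to 1.22 FPKM and 1.15 to 6.39 FPKM over the 6 libraries.

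Most amacrine genes were slightly lower in the CTGF-/- libraries, none of them past the adjusted threshold, while the bipolar genes were divided more nearly as all genes were. None of the 37 members tested passed an adjusted p of 0.05 with limma and Benjamini-Hochberg adjustment over all genes, where 6 genes, or 0.0465%, did. Of the 20 amacrine genes, 16 had a negative difference, 80.0%, against 55.1% of all genes, and their median was -0.16 against -0.02 over all genes. Of the 17 bipolar genes tested, 11 had a negative difference, 64.7%, and their median was -0.02. At an unadjusted p under 0.05, 5 amacrine genes were lower in CTGF-/- and 0 were higher, while 0 bipolar genes were called in either direction. Over all genes 5.49% were called lower and 3.83% higher, 9.32% in all, against 5 of 37 members. Leaving out 1 library changed the amacrine count of 5 to 3 without CTGF-/- 1 or WT 1 and to 1 without WT 2. In bulk RNA, fewer cells of a type and less RNA per cell cannot be told apart.

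The groups did not overlap in 7 members, all lower in CTGF-/-: Megf10, Sst, Dab1, Gad2, Gad1 and Tfap2c among the amacrine genes, and Prkca among the bipolar genes. Over all genes, 10.9% were lower and 7.53% were higher without overlap. The count of 7 became 11 without CTGF-/- 2 and 14 without WT 3, where fewer libraries have to lie apart. The adjusted p was 0.533 for Megf10, Sst, Dab1, Gad2 and Gad1, 0.545 for Tfap2c and 0.564 for Prkca. No member was higher in CTGF-/- without overlap.

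**Figure D1:**
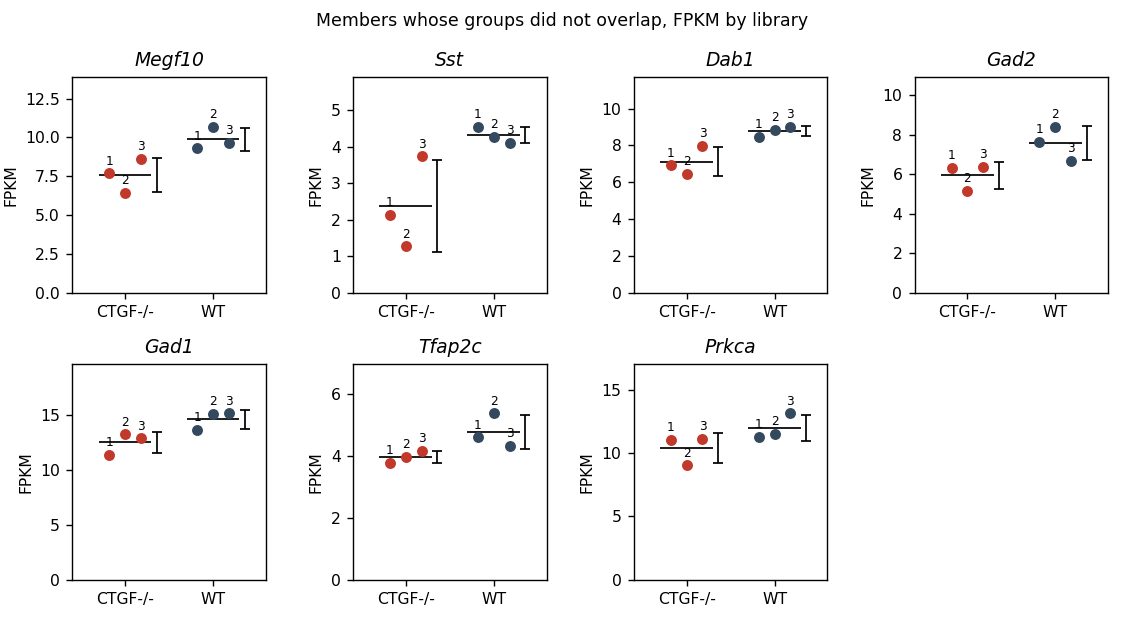
FPKM of the 7 members whose groups did not overlap, with each dot a library numbered by its replicate, the horizontal line the mean and the bar 1 SD either side (n = 3 each). Every CTGF-/- dot lies below every WT dot in these panels, by the widest ratio in Sst.

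Promoters of 5 members are shown because their genes carry the results given next: Sst and Gad2 for the lower amacrine genes, Scgn and Vsx1 for the bipolar genes high in WT 3, and Cabp5 for the bipolar gene with the largest positive difference. They were picked after their values and motif matches were seen. Each runs 5′ to 3′ from 250 bases before to 50 after the start site in RefSeq (GRCm38.p6), and capitals mark motif matches on either strand. RefSeq start sites can differ from the gene ends of the deposited table.
Sst chr16:23890795-23891094, minus strand: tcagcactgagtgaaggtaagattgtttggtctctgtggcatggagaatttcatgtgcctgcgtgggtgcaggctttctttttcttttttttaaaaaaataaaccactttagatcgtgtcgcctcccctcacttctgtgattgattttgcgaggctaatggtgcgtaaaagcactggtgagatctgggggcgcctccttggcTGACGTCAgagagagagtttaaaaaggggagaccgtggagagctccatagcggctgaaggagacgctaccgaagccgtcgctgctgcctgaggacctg
Gad2 chr2:22622077-22622376, plus strand: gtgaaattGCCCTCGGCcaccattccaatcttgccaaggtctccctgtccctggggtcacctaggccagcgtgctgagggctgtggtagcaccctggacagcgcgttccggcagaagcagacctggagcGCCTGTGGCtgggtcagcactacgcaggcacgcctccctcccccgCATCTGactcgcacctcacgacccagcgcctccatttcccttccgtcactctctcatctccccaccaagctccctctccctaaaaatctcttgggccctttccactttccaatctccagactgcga
Scgn chr13:23991165-23991464, minus strand: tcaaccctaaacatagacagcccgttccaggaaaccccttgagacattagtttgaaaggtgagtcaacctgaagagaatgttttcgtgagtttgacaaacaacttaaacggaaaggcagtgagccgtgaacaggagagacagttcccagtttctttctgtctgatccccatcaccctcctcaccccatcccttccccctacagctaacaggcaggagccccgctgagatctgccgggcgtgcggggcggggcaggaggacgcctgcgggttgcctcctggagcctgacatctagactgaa
Vsx1 chr2:150689088-150689387, minus strand: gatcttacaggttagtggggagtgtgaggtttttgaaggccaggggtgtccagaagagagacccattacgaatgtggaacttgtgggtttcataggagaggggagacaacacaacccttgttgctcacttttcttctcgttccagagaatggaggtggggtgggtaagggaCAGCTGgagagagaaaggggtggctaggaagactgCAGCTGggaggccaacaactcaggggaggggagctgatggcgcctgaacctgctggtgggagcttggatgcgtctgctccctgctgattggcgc
Cabp5 chr7:13397905-13398204, plus strand: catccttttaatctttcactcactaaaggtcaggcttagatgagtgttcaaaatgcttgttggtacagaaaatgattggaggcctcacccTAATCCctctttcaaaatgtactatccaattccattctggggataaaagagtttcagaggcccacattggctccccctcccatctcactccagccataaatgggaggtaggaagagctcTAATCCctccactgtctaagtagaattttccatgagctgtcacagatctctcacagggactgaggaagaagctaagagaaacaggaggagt

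The table held promoters of 33 of the 47 named genes, 15 bipolar and 18 amacrine, and 7 motifs were searched on both strands. These 33 include genes without expression values here, such as Lrtm1 and Th, and the motif counts below include them. The cyclic AMP response element TGACGTCA lay at -48 to -41 from the start of Sst, and was found in 0 bipolar and 2 amacrine genes (Sst and Th) and in 1.79% of all promoters. TAATCC, the core bound by OTX2 and CRX, lay at -160 and -41 of Cabp5, and was found in 3 bipolar genes and 1 amacrine gene, and in 7.06% of all promoters. The AP-2 sequence GCCNNNGGC lay at -242 and -121 of Gad2, and was found in 6 bipolar and 3 amacrine genes, and in 16.6% of all. The E-box CAGCTG lay at -79 and -44 of Vsx1, and was found in 2 bipolar and 3 amacrine genes, and in 16.3% of all. The E-box CAGATG lay at -76 of Gad2, and was found in 2 bipolar and 3 amacrine genes, and in 17.2% of all. CACCTG was found in 3 bipolar and 4 amacrine genes and in 20.2% of all, and TAATTA in 1 bipolar and 2 amacrine genes and in 5.29% of all. Scgn held none of the 7 in this window. A match is a description of the letters and not a measured binding site.

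Among the genes of amacrine transmitters, both enzymes that make GABA from glutamate were lower. Gad1 (chromosome 2, 70553072 to 70602014, plus strand, GRCm38) was at 11.4, 13.2 and 12.9 FPKM in CTGF-/-, against 13.6, 15.1 and 15.1 FPKM in WT. Its log2 difference was -0.21 with an SE of 0.09, and the gap between the groups was narrow, with CTGF-/- 2 just under WT 1. Gad2 (chromosome 2, 22622205 to 22693874, plus strand), the enzyme concentrated at terminals, whose promoter is printed above, was at 6.31, 5.15 and 6.39 FPKM in CTGF-/-, against 7.63, 8.41 and 6.69 FPKM in WT. This gave a log2 difference of -0.30 with an SE of 0.12, from means of 5.95 ± 0.691 FPKM in CTGF-/- and 7.58 ± 0.861 FPKM in WT (SD, n = 3 each). Chat, which makes acetylcholine in starburst amacrine cells, was low, at 0.525, 1.35 and 0.674 FPKM in CTGF-/-, against 0.686, 1.1 and 0.991 FPKM in WT, and overlapped between the groups with a difference of -0.08.

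The neuropeptide genes differed among themselves. Sst (chromosome 16, 23889581 to 23890844, minus strand), which encodes somatostatin, a peptide of sparse wide-field amacrine cells, has the cyclic AMP response element shown above in its promoter and had the lowest ratio among the members. It was at 2.13, 1.27 and 3.74 FPKM in CTGF-/-, against 4.56, 4.28 and 4.12 FPKM in WT, and averaged 2.38 ± 1.25 FPKM in CTGF-/- and 4.32 ± 0.223 FPKM in WT (SD, n = 3 each). The ratio of these means was 0.551 and the log2 difference -0.72 with an SE of 0.24. The WT libraries were close together, while the CTGF-/- libraries spread widely, CTGF-/- 3 coming near the WT values. Npy, which encodes neuropeptide Y and was the most abundant peptide gene, was at 71.5, 107 and 85.1 FPKM in CTGF-/-, against 67, 69.4 and 83.5 FPKM in WT, highest in CTGF-/- 2, and its difference of 0.25 had an SE of 0.16 and an adjusted p of 0.589. Tac1, the substance P precursor, was level, at 4.22, 3.86 and 4.74 FPKM in CTGF-/-, against 3.99, 4.11 and 5.01 FPKM in WT.

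Of the remaining amacrine effectors, Megf10 and Dab1 were lower and Calb2 overlapped. Megf10, a transmembrane receptor that spaces starburst amacrine cells and horizontal cells in mouse retina, was at 7.68, 6.45 and 8.64 FPKM in CTGF-/-, against 9.3, 10.7 and 9.65 FPKM in WT. Its log2 difference was -0.35 with an SE of 0.12, and CTGF-/- 3 lay closest to the WT libraries. Dab1 (chromosome 4, 103619359 to 104744844, plus strand), an adaptor of Reelin signalling found in AII amacrine cells, was at 6.92, 6.47 and 7.97 FPKM in CTGF-/-, against 8.46, 8.83 and 9.02 FPKM in WT, a difference of -0.27 with an SE of 0.10. As with Megf10 and Sst, CTGF-/- 2 was lowest and CTGF-/- 3 came nearest to WT. CTGF-/- 2 was also the lowest library for 4100 of the 12915 genes tested. Calb2, the calcium-binding protein calretinin of amacrine and ganglion cells, was at 53.2, 80.9 and 67.7 FPKM in CTGF-/-, against 66, 67.9 and 87.1 FPKM in WT, highest in WT 3, with a difference of -0.14.

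Of the 20 amacrine members, 11 are transcription factor genes, of which 8 were lower and 3 higher, with a median of -0.12. The 3 AP-2 genes had similar differences: -0.19 for Tfap2a, -0.20 for Tfap2b and -0.21 for Tfap2c. Tfap2a was at 13.7, 15.6 and 14.6 FPKM in CTGF-/-, against 16.4, 20.2 and 14.2 FPKM in WT, with overlap. Tfap2b, which marks postmitotic amacrine and horizontal cells, was at 58.7, 63.6 and 65.8 FPKM in CTGF-/-, against 69, 85.3 and 63.7 FPKM in WT, so WT 3 fell within the CTGF-/- range. Tfap2c was at 3.77, 3.96 and 4.16 FPKM in CTGF-/-, against 4.59, 5.36 and 4.32 FPKM in WT, where the groups stayed apart by the small gap between CTGF-/- 3 and WT 3. Bhlhe22, a factor of GABAergic amacrine cells and some OFF bipolar cells, was at 24.3, 20.7 and 25 FPKM in CTGF-/-, against 28.8, 28.1 and 24.2 FPKM in WT, again with WT 3 inside the CTGF-/- range.

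Sox4, a gene of immature neurons of many kinds and the most abundant member, was at 164, 174 and 160.2 FPKM in CTGF-/-, against 186, 191 and 155 FPKM in WT, with a difference of -0.09. Its relative Sox11 was at 10.2, 11.7 and 10.7 FPKM in CTGF-/-, against 13.7, 15.9 and 9.86 FPKM in WT, and in both genes WT 3 was the lowest library. Meis2, a factor of GABAergic amacrine cells, was at 16, 16.6 and 16.1 FPKM in CTGF-/-, against 19.2, 17.9 and 16.3 FPKM in WT. Neurod2, found in AII amacrine and ganglion cells, and Neurod6, found in amacrine cells that release neither GABA nor glycine, had positive differences of 0.25 and 0.15, with SEs of 0.20 and 0.14. Neurod2 was at 8.07, 13.9 and 9.1 FPKM in CTGF-/-, against 8.74, 9.6 and 6.94 FPKM in WT. Neurod6 was at 0.694, 0.985 and 1.08 FPKM in CTGF-/-, against 0.481, 0.726 and 0.992 FPKM in WT. The groups overlapped in both, with CTGF-/- 2 well above the rest in Neurod2. Ptf1a, which commits progenitors to amacrine and horizontal fates, was at 0.697, 1.99 and 1.06 FPKM in CTGF-/-, against 1.62, 1.59 and 0.478 FPKM in WT, and its WT 3 value was the lowest of the 6. Barhl2, which specifies amacrine subtypes, was at 9.63, 16.4 and 10.6 FPKM in CTGF-/-, against 11.5, 12.3 and 12.4 FPKM in WT, with CTGF-/- 2 far above the other 5 libraries, and its difference was -0.02.

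**Figure D2:**
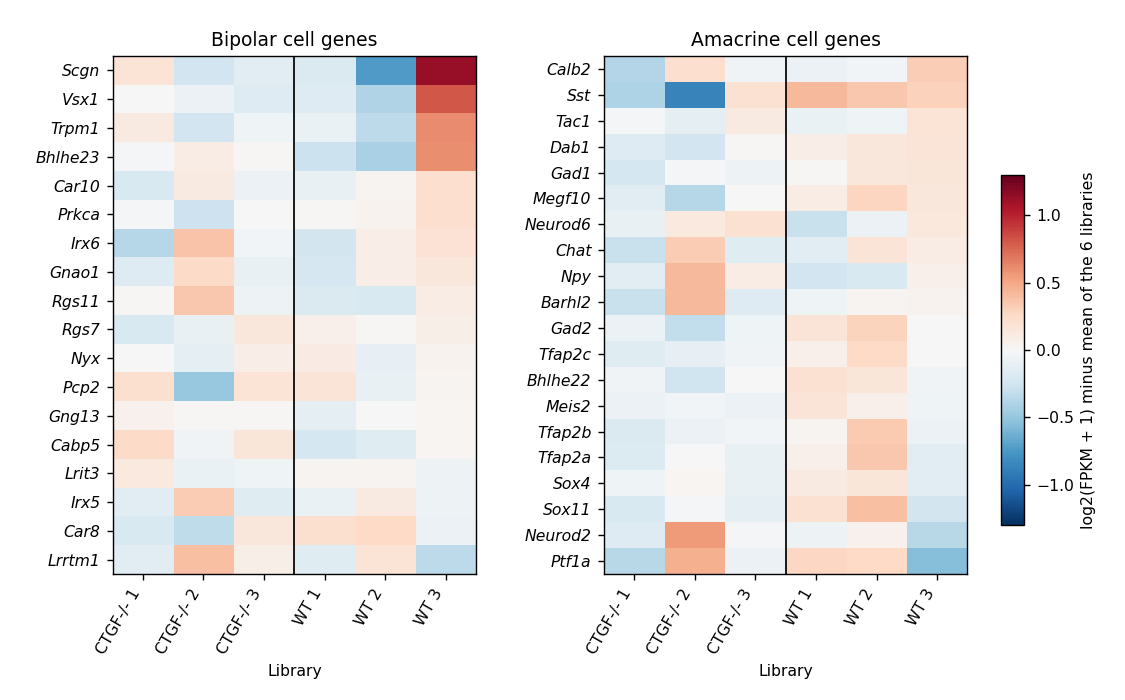
Heat map of each gene's log2(FPKM + 1) after subtracting its average over 6 libraries, for the 18 bipolar genes listed (left) and the 20 amacrine genes (right), with CTGF-/- libraries left of WT libraries and genes ordered by their value in WT 3. Scgn, Vsx1, Trpm1 and Bhlhe23 stand out in WT 3, and Sst is lowest in CTGF-/- 2.

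Some bipolar genes were high in WT 3 alone. WT 3 held more than 1.5 times the mean of the other 5 libraries in 4 of the 18 bipolar genes listed, 22.2%, in 0 of 20 amacrine genes and in 3.43% of all genes tested. The same excess was not confined to bipolar genes: it held for 4 of 23 bipolar partner genes, 4 of 24 amacrine partner genes and 6 of 7 endothelial genes. These 4 genes, Trpm1, Scgn, Vsx1 and Bhlhe23, were singled out after their values were seen. Trpm1, the channel of the ON bipolar cascade, was at 0.571, 0.22 and 0.396 FPKM in CTGF-/-, against 0.367, 0.148 and 1.22 FPKM in WT, and its mean was just under the limit for a test. Scgn (chromosome 13, 23953456 to 23991214, minus strand), the calcium-binding protein secretagogin of cone bipolar cells, was at 3.43, 2.3 and 2.54 FPKM in CTGF-/-, against 2.45, 1.36 and 7.6 FPKM in WT. WT 3 was 3.14 times the mean of the other 5 libraries for Scgn and 3.58 times for Trpm1, while WT 2 was the lowest library for both.

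Both bipolar transcription factor genes of this set had the same order of WT libraries. Vsx1 (chromosome 2, 150680702 to 150689360, minus strand), a homeobox gene of cone bipolar subtypes, was at 3.13, 2.96 and 2.7 FPKM in CTGF-/-, against 2.72, 2.17 and 6.29 FPKM in WT. Bhlhe23, needed for rod bipolar cells to mature in mice, was at 3.5, 3.9 and 3.61 FPKM in CTGF-/-, against 2.76, 2.41 and 5.97 FPKM in WT. The CTGF-/- libraries lay between WT 2 and WT 3 in both genes and close together. The log2 differences were -0.15 for Scgn, -0.17 for Vsx1 and 0.06 for Bhlhe23, with SEs of 0.43, 0.29 and 0.25, each larger than its difference.

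**Figure D3:**
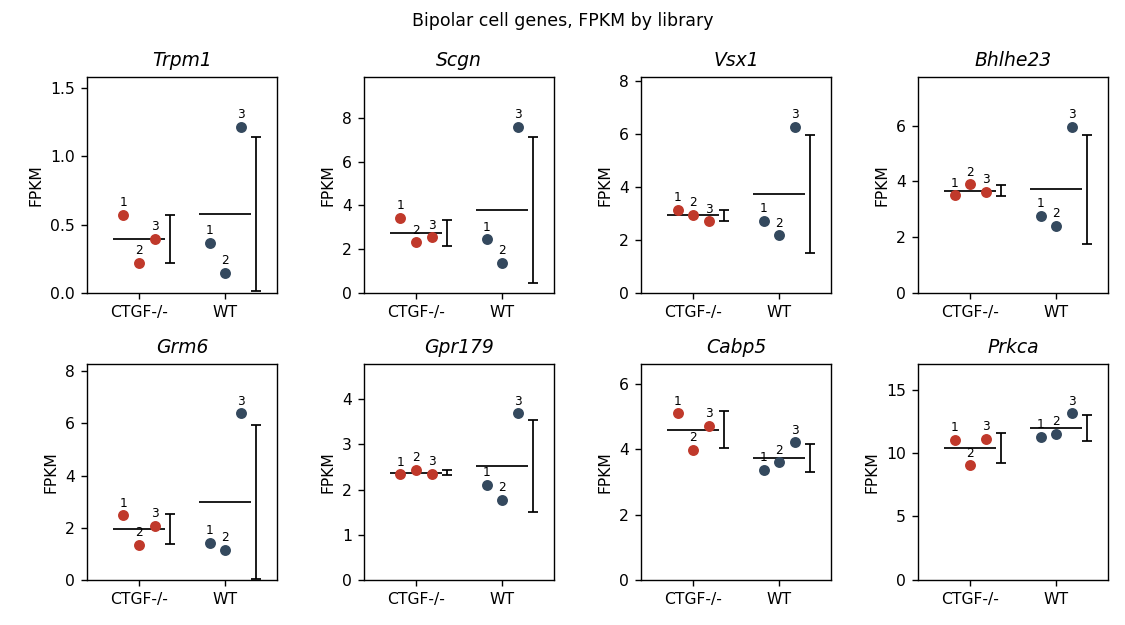
FPKM of 6 members and of the partner genes Grm6 and Gpr179, with each dot a library numbered by its replicate, the horizontal line the mean and the bar 1 SD either side (n = 3 each). WT 3 lies above the other 5 libraries in every panel but Cabp5, and the bars of Trpm1 and Grm6 in WT nearly reach 0.

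For the other cascade members WT 3 did not pass 1.5 times the mean of the other 5 libraries. Gnao1, the alpha subunit of Go, which neurons of many kinds express, was at 16.3, 22 and 17.1 FPKM in CTGF-/-, against 15.7, 19.5 and 20.5 FPKM in WT. Gng13, its gamma subunit partner in ON bipolar cells, was at 1.82, 1.76 and 1.75 FPKM in CTGF-/-, against 1.5, 1.74 and 1.77 FPKM in WT. Lrit3, a leucine-rich repeat protein needed to place the channel, was at 6.72, 5.67 and 5.83 FPKM in CTGF-/-, against 6.28, 6.24 and 5.78 FPKM in WT. The groups of all these genes overlapped, and the differences were -0.01, 0.06 and -0.01. Nyx, nyctalopin, which anchors Trpm1, was at 0.533, 0.41 and 0.629 FPKM in CTGF-/-, against 0.661, 0.429 and 0.595 FPKM in WT. The GTPase-accelerating genes Rgs7 and Rgs11, which end the Go signal, were at differences of -0.10 and 0.19, with SEs of 0.11 and 0.14. Rgs7 was at 2.87, 3.14 and 3.91 FPKM in CTGF-/-, against 3.63, 3.47 and 3.67 FPKM in WT. Rgs11 was at 1.47, 2.12 and 1.34 FPKM in CTGF-/-, against 1.15, 1.14 and 1.62 FPKM in WT. Rgs11 was highest in CTGF-/- 2, and the groups overlapped in both.

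Prkca (chromosome 11, 107933387 to 108343928, minus strand), protein kinase C alpha, the usual marker of rod bipolar cells, was at 11, 9.04 and 11.1 FPKM in CTGF-/-, against 11.3, 11.5 and 13.1 FPKM in WT. Its log2 difference was -0.19 with an SE of 0.11, and only a small gap parted CTGF-/- 3 from WT 1. Cabp5 (chromosome 7, 13398132 to 13408887, plus strand), a calcium-binding protein of bipolar cells, was the bipolar member with the largest positive difference, 0.24 with an SE of 0.12 and an adjusted p of 0.547. It was at 5.1, 3.98 and 4.71 FPKM in CTGF-/-, against 3.38, 3.6 and 4.22 FPKM in WT, so only CTGF-/- 2 and WT 3 crossed. Pcp2, a regulator of Go in ON bipolar cells, was at 2.31, 1.04 and 2.24 FPKM in CTGF-/-, against 2.21, 1.68 and 1.94 FPKM in WT. Car8 and Car10, relatives of carbonic anhydrase without its activity, had differences of -0.25 and -0.10. Car8 was at 1.26, 1.06 and 1.86 FPKM in CTGF-/-, against 1.98, 2.09 and 1.45 FPKM in WT. Car10 was at 5.19, 6.68 and 5.7 FPKM in CTGF-/-, against 5.6, 6.26 and 7.25 FPKM in WT, and both overlapped between the groups.

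Irx5 and Irx6, Iroquois factors of OFF cone bipolar cells in mice, and Lrrtm1, a synaptic adhesion protein, were all highest in CTGF-/- 2. That library was also the highest for 3571 of the 12915 genes tested. Irx5 was at 6.36, 9.15 and 6.24 FPKM in CTGF-/-, against 6.61, 7.77 and 6.69 FPKM in WT. Irx6 was at 3.25, 6.1 and 4.37 FPKM in CTGF-/-, against 3.66, 4.81 and 5.25 FPKM in WT. Lrrtm1 was at 4.76, 7.35 and 5.72 FPKM in CTGF-/-, against 4.71, 6.2 and 4.02 FPKM in WT. The differences were 0.02, -0.02 and 0.22, with SEs of 0.15, 0.20 and 0.18, and the groups overlapped in each. By role, the medians were -0.01 over 6 cascade genes, -0.12 over 6 other signalling genes and 0.00 over 4 transcription factors.

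**Figure D4:**
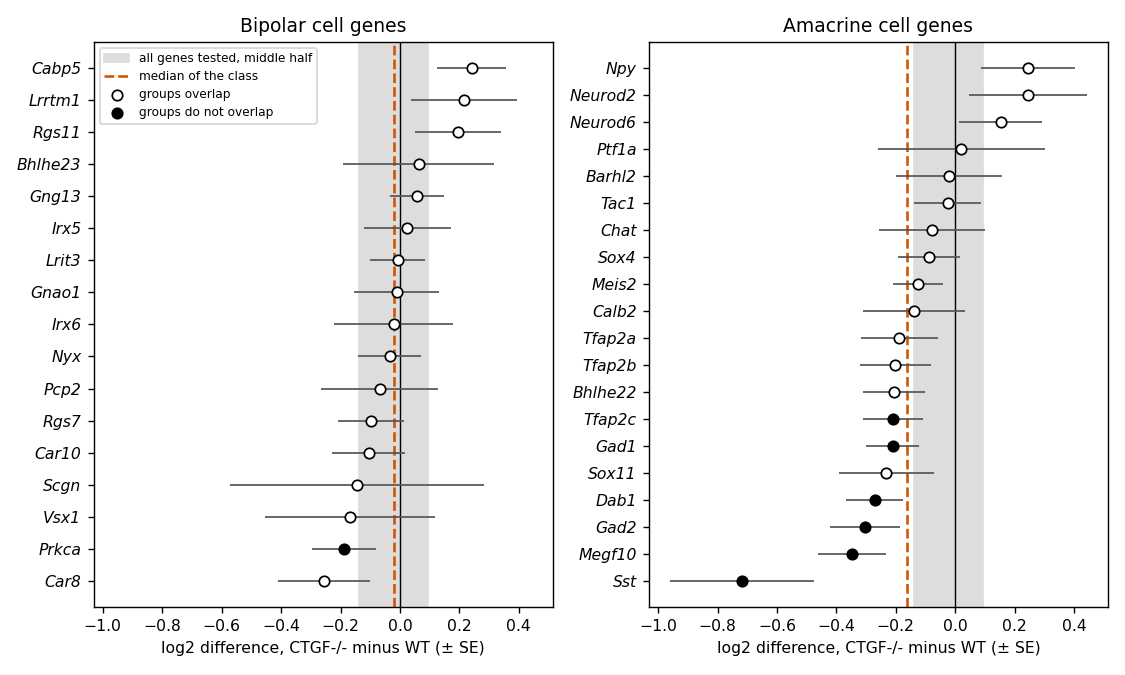
log2 difference of each tested member, CTGF-/- minus WT, with bars of 1 SE either side from the fit, filled dots where the groups do not overlap, the dashed line the median of the class and the grey band the interquartile range of all genes tested. The amacrine median of -0.16 lies just outside the band of -0.14 to 0.09, and the bipolar median of -0.02 lies inside it.

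The bipolar and amacrine classes differed in median by 0.14, bipolar minus amacrine, a value that was 0.28 without WT 3 and -0.02 without WT 2. Without 11 members set aside as widely expressed (Gnao1, Rgs7, Car8, Car10, Bhlhe22, Meis2, Sox4, Sox11, Npy, Calb2 and Dab1) the medians were -0.01 for bipolar and -0.19 for amacrine genes. The members kept still include genes of horizontal or ganglion cells, such as Megf10, the AP-2 genes and Neurod2. The level of a class, the mean of its genes' log2(FPKM + 1) minus the mean over the WT libraries, places each library. The bipolar level was -0.05, 0.00 and -0.01 in CTGF-/-, against -0.09, -0.08 and 0.17 in WT. The amacrine level was -0.25, -0.06 and -0.09 in CTGF-/-, against -0.02, 0.09 and -0.07 in WT. The groups overlapped for both classes, with WT 3 highest of all for bipolar genes and CTGF-/- 1 lowest for amacrine genes. The gap between the classes, bipolar minus amacrine, was 0.21, 0.06 and 0.08 in CTGF-/-, against -0.07, -0.17 and 0.24 in WT, so that WT 3 lay with the CTGF-/- libraries.

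Leaving out WT 3 changed which bipolar genes stood apart. Scgn then had a difference of 0.39 and Vsx1 of 0.19, turned in sign. Bhlhe23 had 0.38 and Cabp5 0.31, with unadjusted p of 0.00986 and 0.0399 in limma. WT 3 was the highest WT library for each of these genes, so leaving it out had to raise their differences. Their values here are therefore not a separate result. Among 17 bipolar genes, 9 were then higher and 8 lower, with 2 called higher at an unadjusted p under 0.05, where 3.75% of all genes were. The bipolar median was then 0.06. Of the amacrine genes 16 of 20 had a negative difference, and 7 were called lower, where 5.05% of all genes were: Sox11, Gad2, Bhlhe22, Megf10, Tfap2a, Sst and Tfap2c. Sox11 then had a difference of -0.41. WT 3 was the lowest WT library for each of these 7 genes except Megf10, so leaving it out had to lower their differences. The rise of the amacrine count from 5 to 7 is therefore not a separate result. The groups of 12 amacrine genes did not overlap and were lower, where 20.6% of all genes were, as were 2 bipolar genes, Prkca and Car8. Without overlap, 4 bipolar genes and Npy were higher, where 13.3% of all genes were. The adjusted p was 0.555 for each of the genes called here.

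CTGF-/- 2, the highest library for Irx5, Lrrtm1, Npy, Neurod2 and Barhl2, was left out likewise. Then 5 amacrine genes were lower at an unadjusted p under 0.05, where 4.14% of all genes were, and 1 bipolar gene, Cabp5, was higher, where 2.82% were. The 5 were Barhl2, Gad1, Megf10, Sst and Dab1, of which Barhl2 had a difference of -0.24, and Cabp5 had 0.32. CTGF-/- 2 was the highest CTGF-/- library for Barhl2 and Gad1 and the lowest for Cabp5. Leaving it out thus had to lower the differences of Barhl2 and Gad1 and raise that of Cabp5, so these calls are not a separate result. CTGF-/- 2 was likewise the highest CTGF-/- library for Chat, whose groups then no longer overlapped. The groups did not overlap in 11 members that were lower, 9 amacrine and 2 bipolar, where 15.6% of all genes were, and in 2 bipolar members that were higher, where 10.6% were. The adjusted p was 0.685 for both Barhl2 and Cabp5.

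Other genes of the same cells give further values from the same libraries, so they are not independent of the member values. Their lists were also chosen with earlier results of these data known. Of 24 bipolar partner genes, 23 were listed, 11 higher and 12 lower, where 55.1% of all genes were lower, with a median of -0.01. At an unadjusted p under 0.05 in limma, 4 were higher and 2 lower, where 3.83% and 5.49% of all genes were. WT 3 was the highest library for 10 of these 23, and for 9 of the 24 amacrine partners, against 2227 of all 12915 genes tested. Grm6, the glutamate receptor of ON bipolar cells, was at 2.48, 1.34 and 2.07 FPKM in CTGF-/-, against 1.41, 1.15 and 6.39 FPKM in WT, and WT 3 was 3.78 times the mean of the other 5. Gpr179, which tethers the RGS proteins to the cascade, was at 2.34, 2.43 and 2.35 FPKM in CTGF-/-, against 2.1, 1.78 and 3.69 FPKM in WT. Grm6 and Gpr179 thus had the order of WT libraries seen in Trpm1, with WT 3 above WT 1 and WT 1 above WT 2.

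The 3 bipolar partners with the smallest p are genes shared with photoreceptors or of low level, and all were higher in CTGF-/-. The 2 partners called lower were Isl1, with a difference of -0.48, and Kcnd2, with -0.32, both without overlap. Otx2, a homeobox gene of photoreceptors and bipolar cells and the most abundant partner, was at 193, 189.8 and 179 FPKM in CTGF-/-, against 134, 142 and 137 FPKM in WT. Its difference was 0.44 with an adjusted p of 0.533, and unlike Grm6 its WT libraries were close together. Slc17a7, which loads glutamate into synaptic vesicles of photoreceptors and bipolar cells, had a difference of 0.40, also without overlap. Cabp2, a calcium-binding protein of bipolar cells, was at 1.19, 1.49 and 1.01 FPKM in CTGF-/-, against 0.828, 0.397 and 0.796 FPKM in WT, a difference of 0.42 with an SE of 0.14.

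Of 28 amacrine partner genes, 24 were listed, 5 higher and 19 lower, where 55.1% of all genes were lower, with a median of -0.15. At an unadjusted p under 0.05 in limma, 1 was higher and 2 lower, where 3.83% and 5.49% of all genes were. Slc18a2, which loads monoamines into vesicles, was at 3.26, 2.9 and 2.82 FPKM in CTGF-/-, against 4.01, 4.21 and 3.42 FPKM in WT, a difference of -0.29. Prox1, found in AII amacrine, horizontal and bipolar cells, had a difference of -0.33 without overlap. Tcf4, a widely expressed basic helix-loop-helix factor, went the other way, at 8.05, 8.47 and 8.17 FPKM in CTGF-/-, against 6.32, 4.02 and 4.15 FPKM in WT, a difference of 0.68 with an SE of 0.15. Neurod4, the most abundant, is also a progenitor gene and was at 198, 133 and 171 FPKM in CTGF-/-, against 227, 223 and 146 FPKM in WT, lowest in CTGF-/- 2 and WT 3. The vesicular transporter of GABA and glycine, Slc32a1, which nearly all amacrine cells need, was at 19.6, 22.1 and 22.1 FPKM in CTGF-/-, against 21.8, 22.9 and 23.2 FPKM in WT, a difference of -0.09. Pax6, present in all amacrine cells, was at 17.1, 22.9 and 19.3 FPKM in CTGF-/-, against 19.7, 20.9 and 19.6 FPKM in WT, a difference of -0.03.

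**Figure D5:**
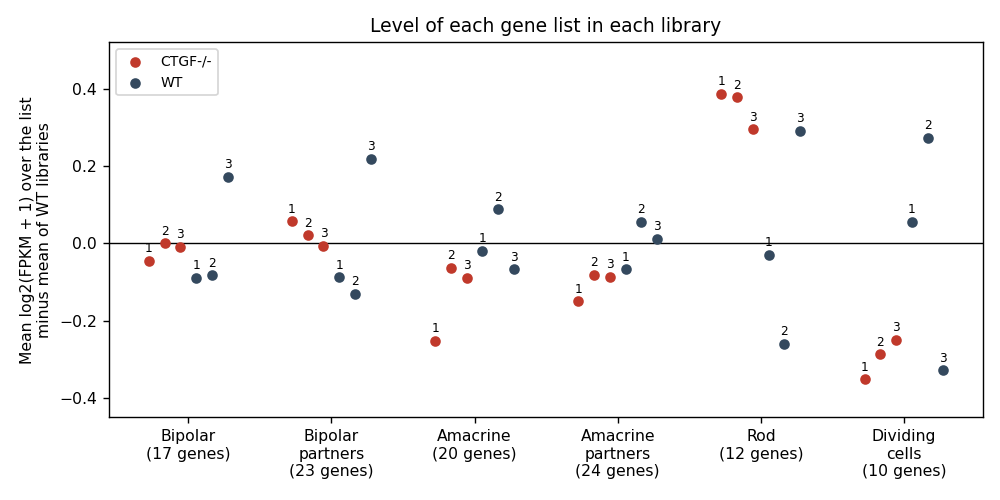
Level of 6 gene lists in each library, as mean log2(FPKM + 1) over the genes of the list minus the mean of the WT libraries, with each dot a library numbered by its replicate. WT 3 is the highest bipolar library, and lies near the CTGF-/- libraries for rod and dividing-cell genes.

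Genes of other retinal cells moved with these libraries, and their part in the member values was not tested. The level of 12 rod genes was 0.39, 0.38 and 0.29 in CTGF-/-, against -0.03, -0.26 and 0.29 in WT, all 12 with a positive difference, and they summed to 1718 to 1885 FPKM in CTGF-/- and to 1251 to 1717 FPKM in WT. The level of 10 genes of dividing cells was -0.35, -0.29 and -0.25 in CTGF-/-, against 0.06, 0.27 and -0.33 in WT, all 10 with a negative difference, and they summed to 86.5 to 91.9 FPKM in CTGF-/- and to 83.3 to 130.0 FPKM in WT. WT 3 was thus near the CTGF-/- libraries for both lists, high for rods and low for dividing cells. Red blood cell genes summed to 138 to 323 FPKM over 5 genes in CTGF-/-, and to 94.6 to 612 FPKM in WT, highest in WT 3. Horizontal cells also express Megf10 and AP-2 factors. Of their 7 genes, 6 had a negative difference, and 2 (Prox1 and Calb1) are also amacrine partners. These 7 summed to 62.8 to 63.7 FPKM in CTGF-/- and to 66.3 to 71.5 FPKM in WT. Their level was -0.22, -0.20 and -0.18 in CTGF-/-, against -0.07, 0.00 and 0.06 in WT, without overlap. The median difference of the horizontal cell genes was -0.25, against -0.16 for the amacrine members. Endothelial genes, 7 of 7 with a negative difference, summed to 36.7 to 37.8 FPKM in CTGF-/- and to 44.6 to 52.3 FPKM in WT. Kdr alone, at 27.3 to 30.6 FPKM in CTGF-/- and 32.3 to 38.5 FPKM in WT, made up most of these sums. The level of the 7 endothelial genes overlapped between the groups, at -0.36, -0.19 and -0.34 in CTGF-/-, against -0.07, -0.27 and 0.34 in WT. The level of 10 ganglion cell genes was -0.37, 0.20 and -0.10 in CTGF-/-, against -0.19, -0.02 and 0.21 in WT, 8 of them with a negative difference, and they summed to 219.7 to 352 FPKM in CTGF-/- and to 247 to 343 FPKM in WT.

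The table of transcripts gives the members at a finer scale from the same libraries, so it is not independent of the gene values. Of 74 listed transcripts of 37 members, 70 were tested among 25082, and 0 passed an adjusted p of 0.05 with limma, where 0.0239% of all did. The lowest adjusted p of a member transcript was 0.819. The difference was negative for 42 of the 70, where it was for 51.8% of all transcripts. At an unadjusted p under 0.05, 4 were lower in CTGF-/- and 0 higher, where 2.53% and 2.52% of all transcripts were. Without overlap, 9 were lower and 2 higher, where 7.53% and 5.9% were. The long Dab1 transcript Dab1-203, of 15 exons and 5278 bases, was at 9.54, 9.04 and 11.2 FPKM in CTGF-/-, against 12, 12.5 and 12.7 FPKM in WT, a difference of -0.30 with an SE of 0.12. Dab1-206, a short transcript of the same gene, went the other way without overlap, at 1.2, 1.42 and 1.72 FPKM in CTGF-/-, against 1.07, 0.853 and 1.01 FPKM in WT, a difference of 0.30 with an SE of 0.17. The other Dab1 transcripts, Dab1-201, Dab1-202 and Dab1-208, had differences of -0.43, 0.15 and -0.07.

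Megf10-201, of 25 exons and 7514 bases, was at 7.27, 6.05 and 8.19 FPKM in CTGF-/-, against 8.98, 10.7 and 9.11 FPKM in WT, a difference of -0.38 with an SE of 0.15. The shorter Megf10-202 was at 1.36, 1.28 and 1.51 FPKM in CTGF-/-, against 1.28, 0.675 and 1.78 FPKM in WT, with overlap. Sst has 1 listed transcript, Sst-201, whose values are those of the gene. The fourth transcript called was Meis2-205, at 0.459, 0.185 and 0.483 FPKM in CTGF-/-, against 0.738, 2.14 and 1.42 FPKM in WT, a minor form of a gene whose main form Meis2-202 had a difference of 0.00.

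Some members share sequence with neighbours, and whether the authors' counting used strand is not stated. In GENCODE M21 on GRCm38, Chat overlaps Slc18a3 on the same strand, and Bhlhe23, Gad2, Dab1, Car8, Rgs7 and Trpm1 overlap small or non-coding genes on the same strand. Gad1, Ptf1a and Scgn, among others, have antisense partners. Values of these genes may hold reads of their neighbours.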

How the data were processed

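RNA of 6 postnatal day 7 mouse retina libraries (3 CTGF-/-, 3 WT) was enriched for polyA, prepared with a stranded dUTP kit and sequenced paired-end, per the labels' protocols. The FPKM values per gene and transcript were made by the authors: the submitters' processing notes name FastQC, cutadapt, HISAT2, StringTie and GRCm38, and the design text adds Ballgown. The sources used here give no versions. No raw counts were analysed here, so no count test was run and no depth or interval is given.

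From the deposited FPKM, log2(FPKM + 1) was tested with limma 3.58.1 in R 4.3.3 (lmFit and eBayes with trend, two-sided, no covariate) over genes or transcripts with a mean of at least 0.5 FPKM, adjusted by Benjamini-Hochberg over all tested. The fit was tested on simulated data. Positive differences mean higher in CTGF-/-. The members and gene lists were chosen with earlier results of these data known. Genes were named by rule: members under an unadjusted p of 0.05 or without overlap, the 5 most abundant of each class, the 3 partners of each class with the smallest p and the most abundant, and up to 10 transcripts under that p without overlap at a mean of at least 1 FPKM, with the others of their gene. The remaining members are given by role, and names outside the rule were chosen after their values were seen. Alternatives were pseudocount, filter, scaling, moderation, a replicate block and leaving out libraries. The list tables of called genes and transcripts were not used.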

Additional observations from a re-analysis of the deposited data

How the results depend on the processing

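No member passed an adjusted p of 0.05 with limma under any of the 14 alternatives. Of 515 member differences under them, 39 turned in sign, in 14 of 37 members, while 12 amacrine and 4 bipolar members kept a negative sign throughout. Leaving out 1 library at a time, the medians spanned -0.22 to -0.088 for the amacrine genes, -0.10 to 0.062 for the bipolar genes and -0.017 to 0.28 for bipolar minus amacrine. All lay within 1 SD between libraries of the main values, but leaving out 1 library can hardly move a median further than that. The limit therefore does not show that the values are stable. Bipolar minus amacrine went from 0.14 to -0.017 without WT 2 and still lay within it. Over the same fits, members under an unadjusted p of 0.05 numbered 1 to 9 (5 with all libraries; 1 without WT 2, 9 without WT 3), members lower without overlap 7 to 14 (7 with all libraries; 11 without CTGF-/- 2, 14 without WT 3), genes past the adjusted threshold 2 to 9 and transcripts 1 to 10 (6 each with all libraries). Without moderation of the variances these were 2 members, 1 gene and 2 transcripts. Without WT 3 and CTGF-/- 3, a pair chosen after seeing the data, they were 8 members, 15 members without overlap, 0 genes and 0 transcripts. No share over all genes was taken for this pair, and fewer libraries then have to lie apart. These member counts are therefore not a result about the members. No pairing by replicate number was seen in the gene values, with correlations of same-numbered deviations of 0.01, 0.17 and -0.16. No CTGF-/- library correlated best with the WT library of its own number. Such correlations cannot show that the samples were unpaired. A replicate block gave 2 genes, 0 transcripts and 4 members. Scaling to equal FPKM totals moved the median of all genes to -0.09, with 70.1% of genes lower against 55.1%, and left 13 bipolar and 17 amacrine genes lower; Bhlhe23 at -0.00059, Irx5 at -0.048 and Ptf1a at -0.028 turned there. Without the chosen pair, those that turned were Barhl2 at 0.074, Chat at 0.0073, Gnao1 at 0.11, Gpr179 at 0.21, Grm6 at 0.33, Irx6 at 0.077, Ptf1a at -0.21, Scgn at 0.42 and Vsx1 at 0.24. Differences that turned when 1 library was left out, with their ranges, were Barhl2 (-0.24 to 0.12), Bhlhe23 (-0.13 to 0.38), Calb2 (-0.28 to 0.017), Chat (-0.26 to 0.047), Gnao1 (-0.14 to 0.068), Gpr179 (-0.18 to 0.20), Grm6 (-0.53 to 0.36), Irx5 (-0.13 to 0.11), Irx6 (-0.21 to 0.16), Lrit3 (-0.072 to 0.033), Nyx (-0.10 to 0.020), Pcp2 (-0.19 to 0.16), Ptf1a (-0.25 to 0.20), Scgn (-0.55 to 0.39), Tac1 (-0.087 to 0.059) and Vsx1 (-0.41 to 0.19). The cause of these turns was not tested. Depth is unknown from FPKM, so a small difference in a low gene such as Trpm1 or Nyx was not detectable with known precision.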

Other observations

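Transcript values of 3 members varied between libraries in ways that their gene values did not, and these were chosen after their values were seen. Gad1-201, of 17 exons and 3355 bases, was at 1.24, 27.7 and 17.1 FPKM in CTGF-/-, against 4.44, 29 and 2.76 FPKM in WT, while the gene stayed between 11.4 and 15.1 FPKM in all 6 libraries. Gad1-204, a short transcript of 4 exons, was at 4.03, 0 and 0 FPKM in CTGF-/-, against 0.0543, 0.0757 and 5.85 FPKM in WT, high in CTGF-/- 1 and WT 3, where Gad1-201 was low. Lrrtm1-202 was at 0.0977, 6.2 and 0.111 FPKM in CTGF-/-, against 2.75, 0.14 and 0.0438 FPKM in WT, high in 1 library of each group. Pcp2-202, whose mean was too low for a test, was at 0.0492, 0.083 and 0.229 FPKM in CTGF-/-, against 1.08, 0.476 and 0.961 FPKM in WT, while the main Pcp2 transcript, Pcp2-204, was at 6.59, 2.61 and 6.23 FPKM in CTGF-/-, against 3.38, 3.36 and 2.58 FPKM in WT.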
